A study of Mus musculus with 12 samples.

Results

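The genes described here handle calcium in the sarcoplasmic reticulum, the calcium store of the muscle fiber. They were taken by symbol from the deposited expression table, and all 9 were among its 22276 gene symbols. Ryr1 encodes the calcium release channel of skeletal muscle, Cacna1s the voltage sensor of the T-tubule membrane, and Atp2a1 and Atp2a2 the calcium pumps. Sln and Pln encode small membrane proteins that inhibit these pumps, Casq1 and Casq2 the calcium-storing calsequestrins, and Pvalb the cytosolic calcium buffer parvalbumin.

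A skeletal muscle fiber contracts when its voltage sensor opens the release channel and calcium flows out of the store, and it relaxes when the pump returns the calcium. Fast-twitch fibers use the pump of Atp2a1, the calsequestrin of Casq1 and much parvalbumin, whereas slow-twitch fibers and heart use the pump of Atp2a2 and more Casq2. The pump of Atp2a2 in its widely expressed form also fills the endoplasmic reticulum of most other cells, and sarcolipin, the product of Sln, is known for making the pump spend ATP as heat.

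RNA-seq was done on white fat (white adipose tissue, WAT), brown fat (BAT), liver and quadriceps muscle of male C57BL/6J mice at the age of 17 wk. The NCD-veh mice ate a normal chow diet and were given vehicle, the HFD-veh mice ate a high-fat diet from 8 wk of age and were given vehicle, and the HFD-ncls mice ate the same high-fat diet and were given narciclasine (ncls), a plant alkaloid, by weekly gavage. Vehicle or ncls was given from 10 wk of age for 7 wk. There was 1 library per organ and group, 12 in all, and how many mice stand behind a library is not given in the sources used here. All differences below therefore describe these libraries, with no spread between animals and no test.

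Expression was deposited as FPKM (fragments mapped, scaled to exon length and to the size of the library), a level that can be set side by side between genes of a library. Where 3 values are given in a row, they stand in the order NCD-veh, HFD-veh, HFD-ncls. The depth of each library was estimated from the steps between low FPKM values at about 19000000 to 26600000 fragments. The labels of the organs were met by their markers. Ucp1, the uncoupling protein of brown adipocytes, had 740 to 770 FPKM in BAT and at most 3.92 elsewhere, the adipokine gene Lep was highest in WAT (300 to 1199 FPKM), Apoa2 was highest in liver (at least 15430 FPKM) and the actin gene Acta1 was highest in muscle (at least 22749 FPKM). Marker genes of another organ were measured in some libraries, and the origin of these transcripts was not tested. A list of 13 fast-twitch muscle genes, of which 12 had values in all libraries, summed to 2223, 901 and 170 FPKM in BAT, and to 68.6 FPKM in HFD-veh liver against 5.48 and 5.85 in NCD-veh and HFD-ncls liver. A list of hepatocyte genes, 6 of 7 with values in all libraries, summed to 279 FPKM in HFD-veh muscle and to 1.31 and 0.404 FPKM in NCD-veh and HFD-ncls muscle.

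To see how the genes are arranged in the mature fast muscle, their levels in the 3 muscle libraries were read first. Pvalb (mm9, chromosome 15, 78021544 to 78036830) had 11904, 12825 and 11504 FPKM in muscle. Atp2a1 (chromosome 7, 133589372 to 133606622) had 9660, 10082 and 10618 FPKM. Casq1 (chromosome 1, 174140025 to 174150026) had 1866, 2091 and 1862 FPKM. These 3 genes of buffering, re-uptake and storage thus had the highest levels of the 9 in every muscle library.

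The release machinery had lower levels per length. Ryr1 (chromosome 7, 29788359 to 29910170) had 279, 226 and 311 FPKM in muscle. Cacna1s (chromosome 1, 137949327 to 138016399) had 177, 185 and 203 FPKM. Between these genes and the remaining members lay a wide gap, as none of the other 4 exceeded 9.20 FPKM in muscle.

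Atp2a2 (chromosome 5, 122903531 to 122952183) had 7.31, 4.84 and 9.20 FPKM in muscle. Casq2 (chromosome 3, 101890338 to 101950437) had 2.56, 3.32 and 2.53 FPKM. Pln (chromosome 10, 53057492 to 53065805) had 1.08, 1.25 and 1.09 FPKM, and Sln (chromosome 9, 53698058 to 53701651) had 1.63, 0.997 and 0.788 FPKM. Neither Pln nor Sln thus exceeded 1.63 FPKM in muscle, beside 9660 FPKM or more of Atp2a1. Myoregulin, a further inhibitor of the pump, was not a member. Its gene, listed as 2310015B20Rik (older symbol of Mrln), had 72.6, 70.0 and 58.2 FPKM in muscle. The Sln values rest on about 21.0, 13.6 and 10.6 fragments of a transcript of 515 nt, the fewest of any member in muscle.

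The annotation places a gene on the opposite strand over part of Atp2a1 (Rabep2), Ryr1 (Gm16799), Casq1 (Gm17224) and Pln (Gm9766 and Gm10942). Whether fragments were counted by strand is not given in the sources used here, so fragments in these overlaps could not be assigned to either gene with certainty.

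**Figure D1:**
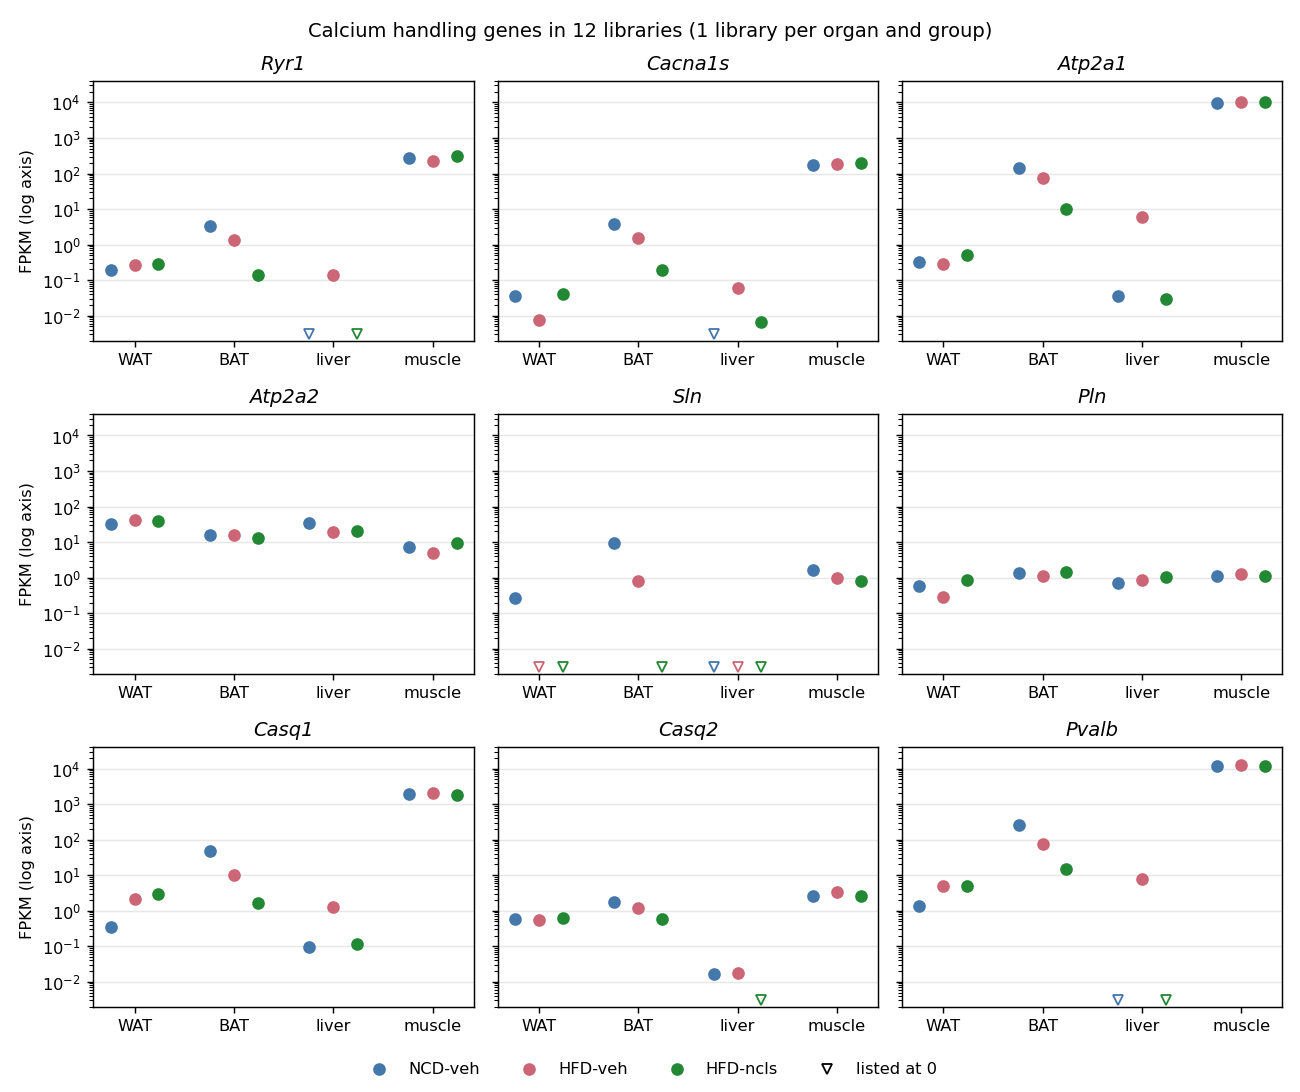
FPKM of each of the 9 genes (log axis) in WAT, BAT, liver and muscle, with 1 point per library and open triangles for values listed at 0. Pvalb, Atp2a1, Casq1, Ryr1 and Cacna1s were highest in muscle, stepped down from NCD-veh to HFD-veh to HFD-ncls in BAT and appeared in HFD-veh liver, whereas Atp2a2 and Pln varied far less between organs.

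The 5 genes with more than 100 FPKM in muscle, Ryr1, Cacna1s, Atp2a1, Casq1 and Pvalb, are called the fast set below. The name stands for this level in muscle and not for a fiber type. Only Atp2a1, Casq1 and Pvalb among them were named above for fast-twitch fibers. The sequence before the start of 7 of the 9 genes was available from RefSeq (GRCm38.p6, a later build than the mm9 of the expression table), with 8 start sites in all, and Sln and Atp2a2 had no entry. Each window ran from 250 bases before to 50 bases after the start. The E-box CAGCTG, which reads the same on both strands and is a motif bound by myogenic factors, was in the windows of Atp2a1, Casq1, Cacna1s and Pln, 4 of 8 windows, and in 16.3% of all 32851 windows. The windows of Ryr1 and Pvalb, also in the fast set, did not hold it, and Pln is not in that set. The 3 fast-set stretches with this motif are shown with the E-box in capitals, 5′ to 3′ on the strand of the gene. The motif starts 55, 195 and 123 bases before the start of transcription, and that of Pln lies after it.
Atp2a1, chr7:126463076-126463175, minus strand: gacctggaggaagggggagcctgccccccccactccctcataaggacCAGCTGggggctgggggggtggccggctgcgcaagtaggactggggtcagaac
Casq1, chr1:172220038-172220137, minus strand: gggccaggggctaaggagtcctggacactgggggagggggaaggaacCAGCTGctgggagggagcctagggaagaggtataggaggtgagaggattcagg
Cacna1s, chr1:136052641-136052740, plus strand: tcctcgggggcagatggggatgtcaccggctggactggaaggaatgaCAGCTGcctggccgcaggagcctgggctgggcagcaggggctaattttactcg

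The consensus of MEF2, a factor of muscle gene expression, was found in 2 of the 8 windows, those of Casq2 and of 1 of the start sites of Pvalb, and in 3.19% of all windows. It starts 69 bases before the start of Casq2 and 180 bases before that of Pvalb, and is in capitals in both stretches.
Casq2, chr3:102086299-102086402, plus strand: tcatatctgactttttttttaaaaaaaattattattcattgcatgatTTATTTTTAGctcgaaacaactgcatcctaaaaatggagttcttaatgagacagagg
Pvalb, chr15:78206524-78206627, minus strand: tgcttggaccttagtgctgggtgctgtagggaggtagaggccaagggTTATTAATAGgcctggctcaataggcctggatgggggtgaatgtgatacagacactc

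The MCAT element CATTCC was found on the minus strand of the Cacna1s window only, with 1 base between it and the E-box, against 14.7% of all windows, and the TATA box TATAAA in the Pln window only, against 13.6%. Both strands were searched for each motif. A match describes these letters and is no evidence of a bound site.

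To place the fast and slow forms side by side, each was given as a share of the summed FPKM of its paralogs. In muscle, Atp2a1 made up at least 99.9% of both pumps, and Atp2a2 the other 0.0756%, 0.0480% and 0.0866%. Casq2 made up 0.137%, 0.159% and 0.136% of both calsequestrins. Ryr2, the release channel of heart, and Ryr3 together made up 0.0129%, 0.0204% and 0.0134% of the release channels. Of the inhibitors, Sln made up 60.1%, 44.4% and 41.9% of Sln and Pln, on the few fragments given above. The share of the slow pump was thus lowest in HFD-veh, while that of Casq2 was highest there.

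To compare the muscle libraries of the groups, ratios were formed on log2(FPKM + 0.1), for genes with at least 1 FPKM in at least 1 of the libraries compared. A gene was called different when the ratio passed 2-fold. All 9 genes passed the filter between HFD-veh and NCD-veh, and 0 of 9 were called in either direction. The background was 3.14% of 9587 genes higher and 0.970% lower in HFD-veh. The median log2 difference was 0.06 for the 9 genes and 0.03 for all genes. Between HFD-ncls and HFD-veh, 8 of the genes passed (Sln did not) and 0 were called, against 1.27% of 9694 genes higher and 2.53% lower in HFD-ncls, with a median of -0.04 for the 8 genes and 0.04 for all genes. Both comparisons use the HFD-veh library.

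The slow pump had the widest range over the muscle libraries after Sln. Its log2 difference was -0.58 between HFD-veh and NCD-veh and 0.91 between HFD-ncls and HFD-veh, the latter a ratio of 1.88-fold. Ryr1 had log2 differences of -0.30 and 0.46, the same order of libraries at a smaller size. In HFD-veh against NCD-veh, Sln was at log2 -0.66 and Casq2 at 0.36. The fast pump Atp2a1, with log2 differences of 0.06 and 0.07, and Pvalb, with 0.11 and -0.16, were nearly flat.

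The slow-twitch contractile genes, like Atp2a2, were lowest in HFD-veh muscle. In a list of 8 such genes, 7 passed the filter and all 7 were over 2-fold lower in HFD-veh when set against NCD-veh (median -3.67) and over 2-fold higher in HFD-ncls when set against HFD-veh (median 3.63). Among all genes, 0.970% were lower in the former comparison and 1.27% higher in the latter. The list summed to 687, 153 and 455 FPKM in muscle, and Tnnt1 was the gene listed under 0.001 FPKM in HFD-veh. Most of that sum was the actin gene Actc1, with 642, 146 and 407 FPKM. Of the 7 genes, 5 passed the filter through the other library alone in each comparison, so a lower value in HFD-veh was built into their choice, and the counts are given as a description. Casq2, also a slow-fiber gene, did not share this order, since its level was highest in HFD-veh. The hepatocyte transcripts in HFD-veh muscle moved against the slow-twitch list, and Atp2a2 had 18.8 FPKM in HFD-veh liver itself. Their part in the muscle values was not tested, and the proportion of fibers of a type cannot be told apart from the RNA per fiber in tissue RNA.

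**Figure D2:**
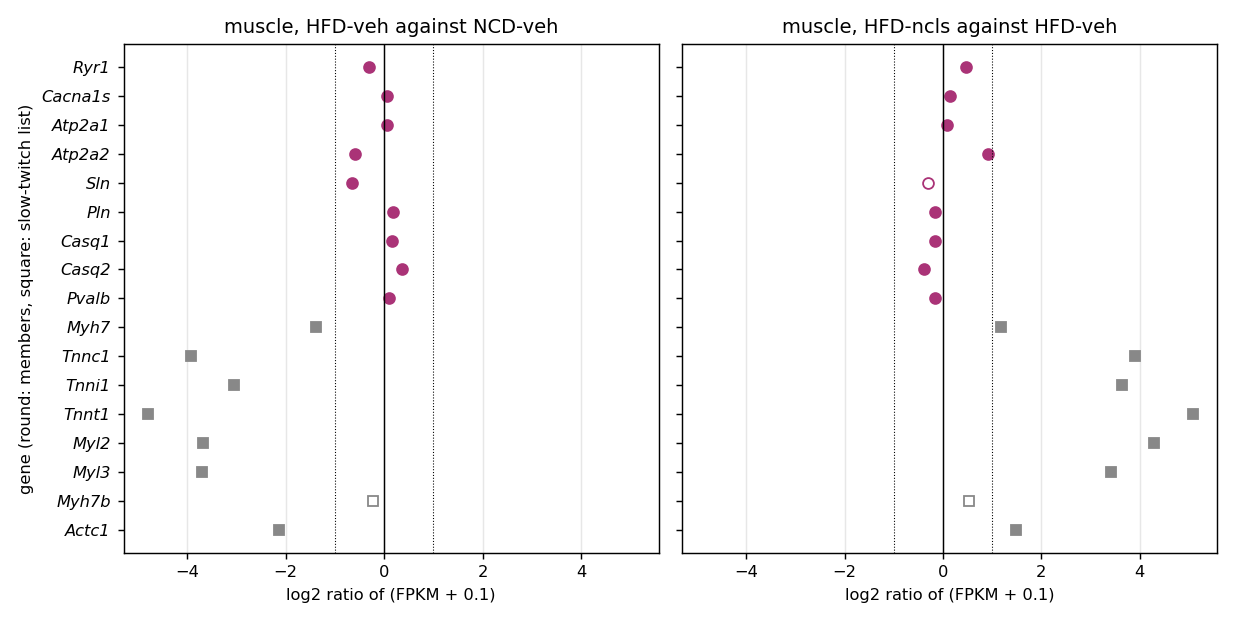
Log2 ratio of (FPKM + 0.1) between muscle libraries for the 9 calcium handling genes (round) and 8 slow-twitch genes (square), with open symbols for genes under 1 FPKM in both libraries and dotted lines at 2-fold. The calcium handling genes lie between the dotted lines in both comparisons, with Atp2a2 nearest to the upper line in HFD-ncls at 0.91, whereas 7 of the slow-twitch genes lie outside.

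The other genes of excitation-contraction coupling and calcium stores were read from a list of 40. Those with the highest mean in muscle were Tmem38a, a potassium channel of the store, Trdn and Jsrp1, which belong to the release complex, Hrc and Srl, which bind calcium in the store, and Jph2, which ties the store to the T-tubule. Tmem38a had 555, 550 and 556 FPKM in muscle. Trdn had 406, 478 and 425, Hrc 342, 349 and 317, Srl 350, 284 and 338, Jsrp1 248, 272 and 253, and Jph2 196, 233 and 196. Of the 40 genes, 35 passed the filter in muscle in each comparison and 0 were called. The median was 0.11 between HFD-veh and NCD-veh and -0.15 between HFD-ncls and HFD-veh, and the values reached from -0.31 to 0.50 and from -0.50 to 0.65. Rcan1, a calcineurin regulator that is itself induced by calcineurin, was at the upper end in HFD-ncls with 17.1, 23.5 and 37.0 FPKM.

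To see which of the genes are present in BAT, the 3 BAT libraries were read next. Pvalb had 253, 76.6 and 15.1 FPKM in BAT. Atp2a1 had 141, 75.5 and 10.2 FPKM, Casq1 46.6, 10.3 and 1.69, Cacna1s 3.72, 1.54 and 0.196, and Ryr1 3.27, 1.35 and 0.135. The 5 genes of the fast set had the same order of libraries, with NCD-veh highest and HFD-ncls lowest.

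The other members did not have this order as a group. Atp2a2 had 16.3, 16.4 and 12.9 FPKM in BAT, and Pln had 1.38, 1.14 and 1.42 FPKM. Casq2 had 1.74, 1.19 and 0.571 FPKM, and Sln had 9.42 and 0.811 FPKM in the vehicle libraries and was listed at 0 with ncls. The pump of Atp2a2 and Pln thus varied little between BAT libraries, and Sln varied most.

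Between HFD-veh and NCD-veh BAT, all 9 genes passed the filter, 5 were over 2-fold lower in HFD-veh (Sln, Casq1, Pvalb, Ryr1 and Cacna1s) and 0 were higher. Among all 10444 genes, 2.01% were lower and 2.28% higher. The median log2 difference was -1.22 for the 9 genes and -0.04 for all genes. Sln had the largest difference, 10.5-fold (log2 -3.39), and it passed the filter through NCD-veh alone. Casq1 was 4.49-fold lower, Pvalb 3.31-fold and Ryr1 and Cacna1s 2.33-fold, and Atp2a1 was 1.87-fold lower and not called. Atp2a2 had a log2 difference of 0.01.

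Between HFD-ncls and HFD-veh BAT, 8 genes passed, the 5 of the fast set were over 2-fold lower in HFD-ncls and 0 were higher. Among all 10331 genes, 1.70% were lower and 0.261% higher. The median was -2.40 for the 8 genes and -0.02 for all genes. Atp2a1 was 7.34-fold lower, Ryr1 6.15-fold, Casq1 5.81-fold, Cacna1s 5.55-fold and Pvalb 5.05-fold, while Atp2a2 had a log2 difference of -0.34, Pln of 0.29 and Casq2 of -0.94. Ryr1, Cacna1s and Casq2 passed the filter through HFD-veh alone, so a lower value in HFD-ncls was built into their choice, and the counts and medians are given as a description.

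The contractile and energy genes of the fast-twitch list stepped down together with the fast set. In the list of 13 fast-twitch genes, 10 were over 2-fold lower in HFD-veh against NCD-veh (median -1.14) and 12 in HFD-ncls against HFD-veh (median -2.77). Among all genes, 2.01% and 1.70% were lower in these comparisons. Myh1 and Myh2 passed the filter through HFD-veh alone in the latter comparison. Of 6 brown adipocyte genes, 5 passed the filter in the former comparison and 6 in the latter, 1 was over 2-fold lower in each, and the medians were -0.00325 and 0.06. The fast set was therefore placed on a common scale with these genes, as the BAT level in percent of the muscle level of the same group. In NCD-veh BAT, Ryr1 stood at 1.17%, Atp2a1 at 1.46%, Cacna1s at 2.10%, Pvalb at 2.13% and Casq1 at 2.50% of muscle, and 12 fast-twitch genes at 1.11% to 5.32% with a median of 1.89%. In HFD-veh BAT, the fast set stood at 0.493% to 0.834%, and the fast-twitch genes at 0.489% to 1.72% with a median of 0.878%. In HFD-ncls BAT, the fast set stood at 0.0435% to 0.131%, and the fast-twitch genes at 0.0739% to 0.586% with a median of 0.123%. In the 3 BAT libraries the fast set lay within the range of the fast-twitch genes, except Ryr1 in HFD-ncls, which lay below it.

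The muscle value times the median ratio of the fast-twitch genes was then subtracted from each BAT value, and values below 0 were set to 0. Atp2a1 and Ryr1 were left at 0 FPKM in all 3 BAT libraries. The other genes of the fast set kept a remainder in NCD-veh BAT, with 28.1 FPKM of Pvalb, 11.3 of Casq1 and 0.375 of Cacna1s, and were at 0 in both high-fat libraries except for 0.972 FPKM of Pvalb in HFD-ncls. Atp2a2 was left at 16.2, 16.3 and 12.9 FPKM, Pln at 1.36, 1.13 and 1.42, Casq2 at 1.70, 1.16 and 0.568, and Sln at 9.39, 0.802 and 0. After this subtraction 6 members passed the filter between HFD-veh and NCD-veh, and 3 of them (Sln, Casq1 and Pvalb) were over 2-fold lower. Casq1 and Pvalb were set to 0 in HFD-veh by the subtraction and passed through NCD-veh alone. Their lower value was therefore built in. In HFD-ncls against HFD-veh the fast set was removed by the subtraction itself, which left 3 members past the filter (Atp2a2, Pln and Casq2), 0 of them called, so that this count says nothing about the fast set.

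Sln, Atp2a2, Pln and Casq2 lay far above that scale. In NCD-veh BAT, Sln stood at 579% of the muscle level, Atp2a2 at 223%, Pln at 127% and Casq2 at 68.1%. In HFD-veh BAT these values were 81.3%, 338%, 91.3% and 35.8%, and in HFD-ncls BAT Atp2a2 stood at 140%, Pln at 130% and Casq2 at 22.6%. The slow-twitch list was spread over a similar height, from 2.27% (Actc1) to 327% (Tnni1) of muscle in NCD-veh BAT, with a median of 51.9%. In HFD-veh BAT its median was 412%, over the 7 genes with a muscle value of at least 0.001 FPKM, and in HFD-ncls BAT it was 4.13%. These ratios move with the muscle library as well, where the list summed to 687, 153 and 455 FPKM, most of it Actc1. In BAT itself the list summed to 38.6, 30.1 and 3.27 FPKM, of which Actc1 was 14.6, 0.401 and 0.155 FPKM. The lower sum in HFD-veh than in NCD-veh BAT thus rests largely on Actc1.

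The step of Sln between NCD-veh and HFD-veh BAT was not shared by the slow-twitch list, where 7 genes passed the filter with a median of 0.41, 4 of them above 0. Tnnt1, from 2.21 FPKM to under 0.001, and the actin gene Actc1, from 14.6 to 0.401 FPKM, were the 2 slow-twitch genes over 2-fold lower, against 2.01% of all genes. Tnnt1 and Actc1 passed the filter through NCD-veh alone. Between HFD-ncls and HFD-veh BAT, Sln went from 0.811 FPKM to a listed 0. There 5 slow-twitch genes passed the filter and all 5 were over 2-fold lower (median -3.44), against 1.70% of all 10331 genes. Myh7, Tnni1 and Myl3 passed through HFD-veh alone, so a lower value in HFD-ncls was built into their choice. By approximate count, Sln went from 127 fragments in NCD-veh to 10.7 in HFD-veh BAT. A list of 7 heart genes summed to 7.20, 3.61 and 2.49 FPKM in BAT, in the same order of libraries as Sln. Most of it was Myl4, with 5.73, 3.02 and 2.21 FPKM, Tnnt2 was listed at 0.968, 0 and 0 FPKM and Myh6 had 0.393, 0.471 and 0.0363 FPKM. Smooth muscle markers summed to 39.6, 55.1 and 35.6 FPKM in BAT. The part of other cells in the Sln values was not tested.

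**Figure D3:**
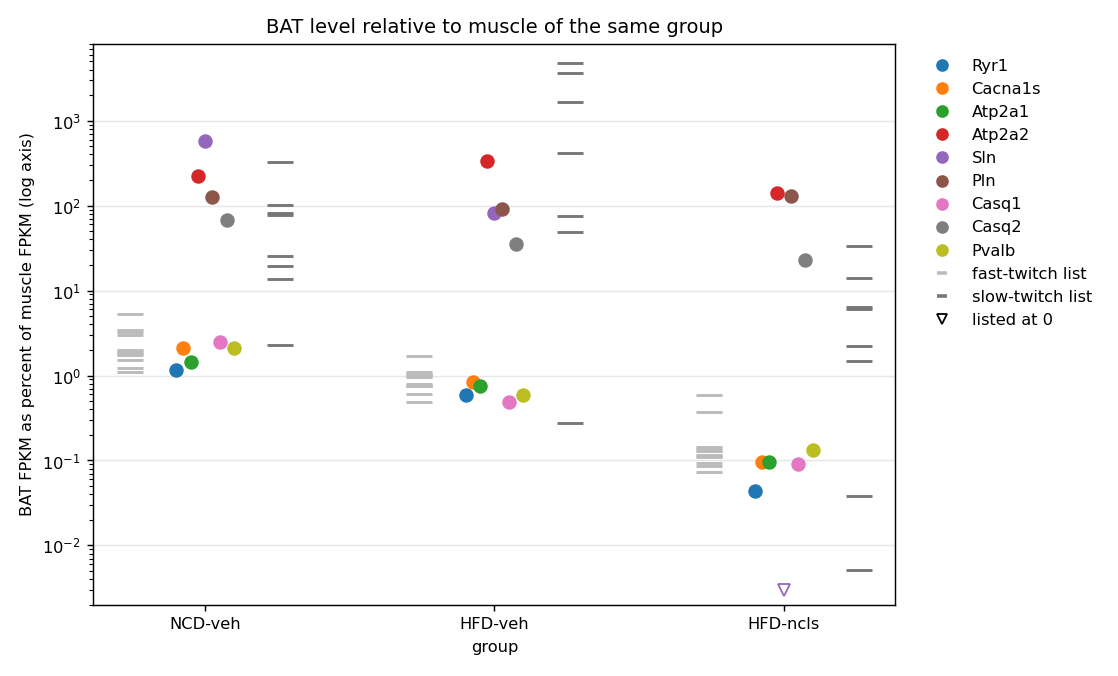
BAT level in percent of the muscle level of the same group (log axis) for the 9 calcium handling genes (points), the fast-twitch list (light dashes) and the slow-twitch list (dark dashes), with an open triangle for Sln listed at 0. Ryr1, Cacna1s, Atp2a1, Casq1 and Pvalb move down beside the fast-twitch dashes, while Atp2a2 and Pln stay at 91.3% or more in each group.

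The shares of the paralogs in BAT changed between libraries. Atp2a1 made up 89.6%, 82.2% and 44.1% of both pumps in BAT, with Atp2a2 nearly constant in FPKM. Casq1 made up 96.4%, 89.7% and 74.7% of both calsequestrins. Ryr1 made up 98.9%, 73.8% and 30.9% of the release channels. The rest was nearly all Ryr2 in the high-fat libraries, and in NCD-veh Ryr3 added 0.00692 FPKM to it. Ryr2 itself had 0.0295, 0.472 and 0.300 FPKM in BAT. Its share was larger in HFD-veh than in NCD-veh through its own higher level as well as the lower level of Ryr1. In HFD-ncls its own level was below that of HFD-veh, and its share was larger only through the lower level of Ryr1.

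Of the 40 other coupling genes, 32 passed the filter between HFD-veh and NCD-veh BAT. With a median of -0.16, 7 were over 2-fold lower and 0 higher, against 2.01% and 2.28% of all 10444 genes. Cacng1 and Stac3 passed through NCD-veh alone, so a lower value in HFD-veh was built into their choice. Cacng1, a subunit of the voltage sensor, went from 4.63 to 0.660 FPKM, the triad protein gene Sypl2 from 3.97 to 1.01, Hrc from 7.08 to 2.88, Stac3, an adaptor of the voltage sensor, from 1.66 to 0.669, Tmem38a from 14.3 to 6.23, Srl from 9.37 to 4.37 and Trdn from 9.52 to 4.69. Between HFD-ncls and HFD-veh BAT, 28 passed, with a median of -0.29. Of these, 6 were over 2-fold lower and 0 higher, against 1.70% and 0.261% of all 10331 genes. Trdn, Jsrp1, Hrc and Jph2 passed through HFD-veh alone, so a lower value in HFD-ncls was built into their choice. Trdn went from 4.69 to 0.561 FPKM, Jsrp1 from 3.45 to 0.482, Hrc from 2.88 to 0.478, Jph2 from 1.40 to 0.427, Srl from 4.37 to 1.87 and Tmem38a from 6.23 to 2.79. The genes named are muscle genes of the triad and the store, with means of at least 90 FPKM in muscle, and the widely expressed store genes Calr, Stim1 and Itpr2 were not called.

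WAT held a different selection of the members. Atp2a2 had 32.5, 42.0 and 39.1 FPKM in WAT, above the other organs in both high-fat groups and just below liver (34.6 FPKM) in NCD-veh. Casq1 had 0.341, 2.16 and 2.87 FPKM, and Pvalb had 1.34, 4.97 and 4.89 FPKM. Both genes were higher in the 2 libraries from mice on the high-fat diet than in the NCD-veh library. Atp2a1 had 0.325, 0.285 and 0.505 FPKM, Ryr1 0.194, 0.270 and 0.291, and Cacna1s at most 0.0413 FPKM, so the rest of the fast set did not show that order at any size near it.

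Between HFD-veh and NCD-veh WAT, 3 of the 9 genes passed the filter, 2 were over 2-fold higher in HFD-veh and 0 lower. Among all 12208 genes, 5.24% were higher and 3.87% lower. Casq1 was 5.12-fold higher (log2 2.36) and passed through HFD-veh alone, and Pvalb was 3.53-fold higher (log2 1.82). In approximate fragments, Casq1 went from 13.4 to 80.9 and Pvalb from 27.3 to 97.2. Between HFD-ncls and HFD-veh WAT, 3 genes passed and 0 were called, against 1.49% of 12152 genes higher and 0.214% lower, and Casq1 was at log2 0.40 and Pvalb at -0.02.

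The fast-twitch list as a whole did not move with Casq1 and Pvalb in WAT. Of 13 genes, 6 passed the filter, 0 were called between HFD-veh and NCD-veh WAT, and the median was -0.07. Of the 6 genes, 3 were above 0 and 3 below, from log2 -0.96 to 0.84. The highest was Acta1, with 30.7, 55.2 and 40.2 FPKM. The creatine kinase gene Ckm, at 16147 FPKM or more in the vehicle muscle libraries, did not pass the filter in WAT, with 0.433, 0.186 and 0.409 FPKM. In HFD-veh WAT, Casq1 stood at 0.103% of its muscle level, Ryr1 at 0.120% and Atp2a1 at 0.00283%, beside fast-twitch genes at 0.00115% to 0.273% with a median of 0.0147%, whereas in BAT of the same group Casq1 stood at 0.493% and Atp2a1 at 0.749%.

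Some other genes of the store were also higher in HFD-veh WAT. Of the 40 coupling genes, 27 passed the filter, 17 of them above 0 and 10 below, with a median of 0.26. In HFD-veh 4 were over 2-fold higher and 1 was lower, against 5.24% and 3.87% of all 12208 genes. Trdn and Jph1 passed through HFD-veh alone, so a higher value there was built into their choice. Trdn, which anchors calsequestrin to the release channel, had 0.152, 2.82 and 1.59 FPKM in WAT. Jph1 had 0.904, 2.51 and 2.25 FPKM, Srl 1.03, 2.41 and 1.88, and the pump gene Atp2a3 13.1, 28.5 and 31.6 FPKM. S100a1, which encodes a calcium-binding regulator, was the lower gene with 359, 136 and 151 FPKM. These genes are named for WAT after their values were seen.

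The release channel of heart also differed between the NCD-veh and the high-fat libraries of both fat depots. Ryr2 (chromosome 13, 11645370 to 12199212) had 0.0140, 0.380 and 0.301 FPKM in WAT, on about 4.92, 128 and 96.3 fragments of a transcript of 16813 nt. In BAT it rested on about 13.0, 203 and 127 fragments. It stayed under the filter of 1 FPKM in each library and so entered none of the counts above, and it was singled out after its values were seen. In muscle and liver it had at most 0.00429 FPKM. Ryr2 made up most of the channels other than Ryr1 in HFD-veh WAT, where Ryr1 was 40.5% of the sum, against 89.5% in NCD-veh WAT.

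Summed markers of some other cells were also higher in the high-fat WAT libraries than in NCD-veh. Smooth muscle markers, 6 of 6 with values, summed to 89.6, 215 and 189 FPKM in WAT, and hepatocyte markers to 1.81, 27.2 and 105 FPKM. Heart markers, 7 of 7 with values, summed to 7.65, 17.3 and 15.9 FPKM. Of the smooth muscle markers, 5 passed the filter between HFD-veh and NCD-veh WAT, with a median of 0.48. Acta2 alone was over 2-fold higher, with 44.1, 155 and 114 FPKM. Of the heart markers, Myl4 alone passed the filter in WAT, with 6.38, 16.2 and 14.9 FPKM, and 3 were under 0.001 FPKM in each WAT library. Liver of the HFD-veh group itself had 1.27 FPKM of Casq1, 0.227 of Trdn and 0.00281 of Ryr2, all below the levels in HFD-veh WAT. The part of the cells marked by these genes in the WAT values was not tested. In tissue RNA, fewer cells of a type and less RNA per cell cannot be told apart.

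**Figure D4:**
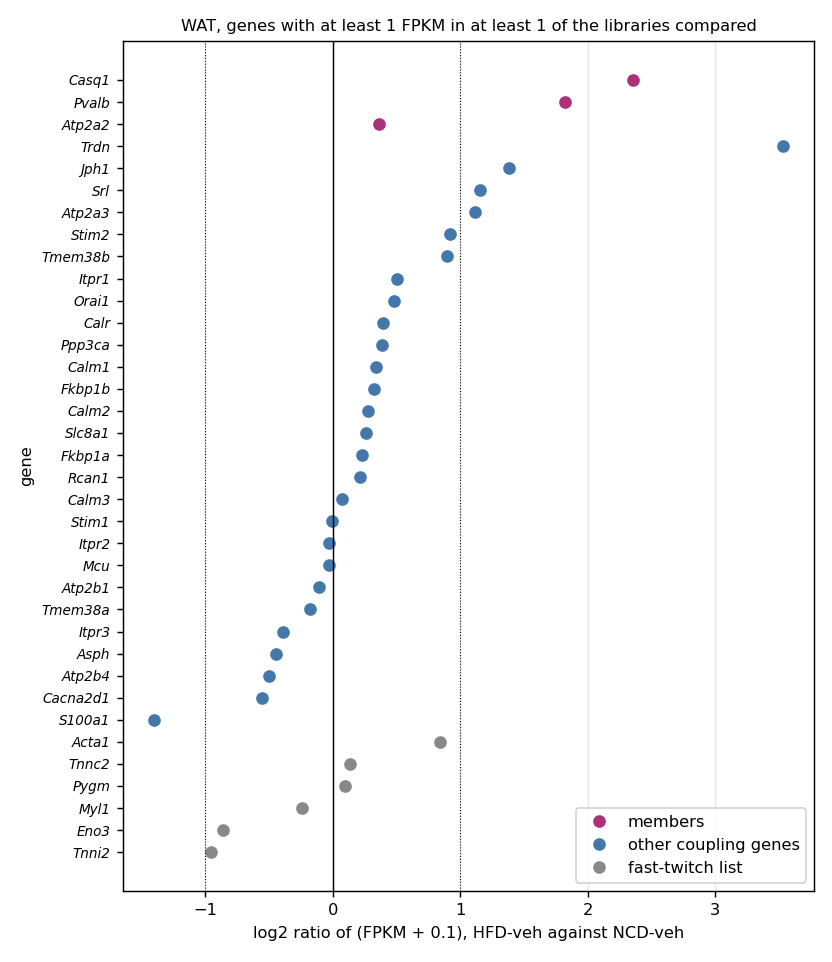
Log2 ratio of (FPKM + 0.1) between HFD-veh and NCD-veh WAT for members, other coupling genes and fast-twitch genes with at least 1 FPKM in at least 1 of the libraries compared, with dotted lines at 2-fold. Casq1 (2.36), Pvalb (1.82) and Trdn (3.53) lie right of the upper line, and the fast-twitch genes lie between the lines.

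In liver, Atp2a2 was the main member, with 34.6, 18.8 and 20.5 FPKM. Its log2 difference between HFD-veh and NCD-veh was -0.88, the largest of the slow pump in any organ for the diet, and 0.13 between HFD-ncls and HFD-veh. Pln had 0.721, 0.842 and 1.03 FPKM, and Sln was listed at 0 in all liver libraries. Liver thus held more than 2 times the Atp2a2 level of muscle in each group.

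The fast set appeared in the HFD-veh liver library. Pvalb had 7.82 FPKM there and was listed at 0 in the other liver libraries, Atp2a1 had 5.91 FPKM against 0.0362 in NCD-veh and 0.0302 in HFD-ncls, and Casq1 had 1.27 against 0.0935 and 0.117. Between HFD-veh and NCD-veh liver, 4 members passed the filter and these 3 were over 2-fold higher, against 2.86% of 10016 genes higher and 2.27% lower. Between HFD-ncls and HFD-veh, 5 passed and the same 3 were over 2-fold lower, against 1.31% of 9956 genes lower and 1.00% higher. The 3 genes passed the filter through HFD-veh alone, so that they had to differ.

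The amounts in HFD-veh liver were in nearly fixed proportion to muscle. Atp2a1 stood at 0.0586%, Casq1 at 0.0607%, Pvalb at 0.0610% and Ryr1 at 0.0631% of the HFD-veh muscle level, and Cacna1s at 0.0332%, on about 8.67 fragments. The 12 fast-twitch genes stood at 0.0568% to 0.135% with a median of 0.0638%. In that list 10 of 13 genes were over 2-fold higher in HFD-veh than in NCD-veh liver, against 2.86% of all 10016 genes. Of the 10 genes, Acta1 alone had at least 1 FPKM in NCD-veh liver, so a higher value was built into the choice of the others.

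To find genes that vary like the members within organs, each organ's mean was subtracted from log2(FPKM + 0.1), and Pearson r was computed over the 12 libraries. Libraries share their tissue and its mixture, so r is a description. Among the genes compared (12843, and 12844 for Sln), those most like Atp2a1 were Tnnc2 (r = 0.997), Tnnt3, Ckm, Tnni2 and Pvalb (0.966), contractile and energy genes of fast fibers and a fellow member. Those most like Sln were Cav3, the muscle caveolin (0.980), Eno3, Podxl2, Clcn1, the muscle chloride channel, and Myadml2 (0.957). Of these, Cav3 had 0.956, 0.230 and 0.0769 FPKM in BAT. Those most like Atp2a2 were Glg1 (0.959), Fas, Cdk12, Rit1 and Ctu1 (0.924). Those most like Pln were Zap70 (0.936), Scx, Car11, Hand2 and 1190007I07Rik (0.879). Among the members, r was 0.968 between Ryr1 and Cacna1s, 0.900 between Cacna1s and Sln and 0.458 between Atp2a1 and Sln, and that of Atp2a2 with the other 8 genes ran from -0.373 (Pln) to 0.191 (Ryr1).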

How the data were processed

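Each of 12 RNA-seq libraries, from 4 organs and 3 groups of mice, was assigned by its sample title. The study's methods name TopHat for alignment (mm9) and Cufflinks for expression, and the authors deposited FPKM per gene symbol and library. Values were missing in some library for 86 symbols. Strandedness and pooling of mice are not given in the sources used here. FPKM are no counts and each group had 1 library, so no test was run.

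Log2 ratios used a pseudocount of 0.1 FPKM, which understates changes of low genes. Genes needed at least 1 FPKM in at least 1 of the libraries compared and were called at over 2-fold. Depth was estimated from the FPKM steps of low genes and transcript lengths (GENCODE, mm9), and is approximate. Members and gene lists were chosen with earlier results of these data known. Named were all 9 members, coupling genes over 2-fold different in muscle or BAT or among the 6 highest in muscle, defining markers, and the 5 genes most like Atp2a1, Atp2a2, Sln and Pln. Ryr2, Rcan1 and 2310015B20Rik were named after their values were seen. So were the other coupling genes given for WAT, those given as not called in BAT, and marker genes given with filter counts. Other pseudocounts, filters, scalings to the median gene, a common muscle reference, a subtraction of the muscle share and paralog shares with 0.1 FPKM added were tried. Computations used Python 3.11.15, numpy 2.4.6 and pandas 2.3.3. With 1 library per organ and group, how often a call is wrong was not tested.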

Additional observations from a re-analysis of the deposited data

Results flagged for a closer look

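Between HFD-veh and NCD-veh, Casq1 was higher in WAT and in liver and lower in BAT, each by over 2-fold. In WAT and liver Casq1 passed the filter through HFD-veh alone, with 0.341 and 0.0935 FPKM in NCD-veh. A higher value there was therefore built into its choice. Its log2 differences were 2.36 in WAT, 2.82 in liver and -2.17 in BAT, so that WAT and BAT were apart by 4.52 and liver and BAT by 4.99 on the log2 scale. Pvalb was higher in WAT (log2 1.82) and lower in BAT (-1.73), a gap of 3.55. With 1 library per organ and group these differences between organs were not tested. Fast-twitch markers moved with Casq1 and Pvalb in BAT (median -1.14) and in liver (median 4.37), where Pvalb had 7.82 FPKM in HFD-veh and was listed at 0 in NCD-veh, and were at a median of -0.07 in WAT. Most of these markers passed the filter in liver through HFD-veh alone, so a high liver median was built in as well.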

How the results depend on the processing

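Without replicates, a value was taken as moved when it changed by over 1.5 times, and 419 of 469 values under other settings did not move. Some of these could not move, since a filter leaves the ratio of a single gene as it is. A scaling to the median gene shifts all genes of a comparison by the same amount. Among 151 values of the main results, 123 did not move, 27 moved and 1 reversed. The median of the members between HFD-veh and NCD-veh WAT (1.82) was 1.24 with a pseudocount of 1 FPKM and 0.37 with a filter of 5 FPKM, and turned to -0.0901 with no filter. In liver, that median (4.14) was 1.90 with a pseudocount of 1 FPKM, 5.31 with 0.01 FPKM, 5.46 with a filter of 5 FPKM and 0.69 with no filter. The liver median between HFD-ncls and HFD-veh (-2.66) was -1.02, -3.33, -5.53 and -0.60 under these settings. In BAT, the 5 members lower in HFD-veh against NCD-veh became 3 with a pseudocount of 1 FPKM, 3 with a filter of 5 FPKM and 3 with the muscle share subtracted, which also put the median at -1.95. The subtraction set Casq1 and Pvalb to 0 in HFD-veh, so their part in that last count and in the median was built in. The 5 members lower in HFD-ncls against HFD-veh BAT became 3 with a filter of 5 FPKM and 0 with the muscle share subtracted, and the median became -1.07 with a pseudocount of 1 FPKM and -0.34 with the subtraction. That subtraction removed the fast set from the latter comparison by construction and left 3 members, so its 0 and its median say nothing about the fast set. The subtraction put the shares of Atp2a1 and Ryr1 in BAT at 0% in all 3 groups, and that of Casq1 at 0% in HFD-veh and HFD-ncls. Adding 0.1 FPKM to each paralog put the share of Sln in HFD-ncls BAT at 6.18%. With 1 library per group, no difference could be set against the spread between mice, and the low values of Sln, Pln and Casq2 rest on few fragments.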
